A study of Mus musculus with 20 samples.

Results

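The mRNAs of the cytosolic ribosomal proteins were followed in colonic intestinal epithelial cells (IECs) of stressed and unstressed mice. The members are the 76 protein coding genes of the count table whose symbols have the form of a ribosomal protein name, out of 15876 genes in all. By name, 48 were assigned to the large subunit and 28 to the small subunit. The naming rule used no measured value, though the members were chosen with earlier results of these data known. The IECs were sorted as EpCAM+ CD45- cells from conventionally raised adult male C57BL/6NCrl mice, which were 6 to 8 weeks of age. Str mice (n = 10) met an aggressive retired breeder of their own strain in the home cage, which held 3 residents, for 2 h on each of 6 days. Con mice (n = 10) stayed in the home cage and were not handled. Tissue was taken 12 to 15 h after the last stressor. Each library is also marked V or L in its name, 5 of each per group, and no source used here explains the mark. Names such as SV4 and CL1 below hold the group (S for Str, C for Con), that letter and a number.

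A ribosome is built from a small subunit, which reads the mRNA, and a large subunit, which joins the amino acids. Each subunit carries a set of proteins that are needed in near equal amounts, so their mRNAs are known to be abundant and to move together. Most of these mRNAs begin with a run of pyrimidines, the 5′ terminal oligopyrimidine or TOP motif, through which the TOR kinase controls how much of the mRNA is translated. MYC is known to raise the transcription of genes for ribosomal proteins and for ribosome assembly. The colonic epithelium renews itself continually from the crypt base and relies on this machinery for growth.

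Stretches around the start of transcription are shown for the 3 members that differed between Str and Con and for 4 members with a clear run of pyrimidines. Each line gives the sense strand from 25 bases before the annotated start to the 25 bases that follow it (RefSeq, GRCm38.p6). Capitals mark runs of at least 8 bases that are all C or T.
Rpl7l1 (chr17:46782632-46782681, minus strand): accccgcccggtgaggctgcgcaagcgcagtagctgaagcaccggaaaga
Rps4x (chrX:102189367-102189416, minus strand): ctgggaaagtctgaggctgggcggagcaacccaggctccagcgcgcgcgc
Rpl37 (chr15:5116588-5116637, plus strand): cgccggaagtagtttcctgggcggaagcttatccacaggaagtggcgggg
Rpl35 (chr2:39005107-39005156, minus strand): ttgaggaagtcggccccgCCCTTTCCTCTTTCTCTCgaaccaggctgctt
Rpl38 (chr11:114668555-114668604, plus strand): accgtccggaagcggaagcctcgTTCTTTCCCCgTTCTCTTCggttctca
Rps6 (chr4:86857343-86857392, minus strand): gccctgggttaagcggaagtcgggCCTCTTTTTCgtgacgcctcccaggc
Rplp2 (chr7:141447626-141447675, plus strand): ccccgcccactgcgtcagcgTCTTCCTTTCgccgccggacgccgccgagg
Promoter entries were matched for 56 of the 76 members. Such a run lay in the same window of 30 of the 56 (53.6%), in 6 of 44 matched ribosome assembly genes (13.6%), and in 22.0% of the 17492 protein coding genes of the RefSeq promoter table. The letters CCGGAAG, which ETS family factors such as GABP are known to bind, were found on either strand within the 300 bases around the start in 22 of the 56 members (39.3%), against 12.9% of the 17492 genes. The windows of Rpl7l1, Rps4x and Rpl37 held no such run at the annotated start, which says only that these letters are absent from these windows. The median log2 fold change, Str over Con, was -0.03 in the 30 members with a run and -0.04 in the 26 without one.

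Ribosomal protein mRNA was close to the same level in both groups. The 48 large subunit genes took 1.63% to 2.09% of all counts in Str libraries (median 1.81%), against 1.66% to 2.27% in Con libraries (median 1.94%). The 28 small subunit genes took 0.740% to 0.952% in Str libraries (median 0.833%), against 0.760% to 1.04% in Con libraries (median 0.889%). The groups overlapped over most of their range in both subunits, as the plot of counts by library shows. The summed large subunit counts stood to the summed small subunit counts as 2.08 to 2.22 in Str (mean 2.19 ± 0.040, SD, n = 10) and as 2.13 to 2.19 in Con (mean 2.16 ± 0.018, SD, n = 10). The lowest Str ratio was that of SL4, the library in which Rps3a1 was at 1043 CPM against 839 CPM at most in the other Str libraries, and the other 9 Str ratios were 2.18 to 2.22. Apart from SL4 and SL1 (2.177), every Str ratio lay above the highest Con ratio (2.185, CV3), though by little in SV4 (2.186). The difference in this ratio was not tested. In sorted bulk cells, fewer cells of a type and less RNA per cell cannot be told apart.

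**Figure D1:**
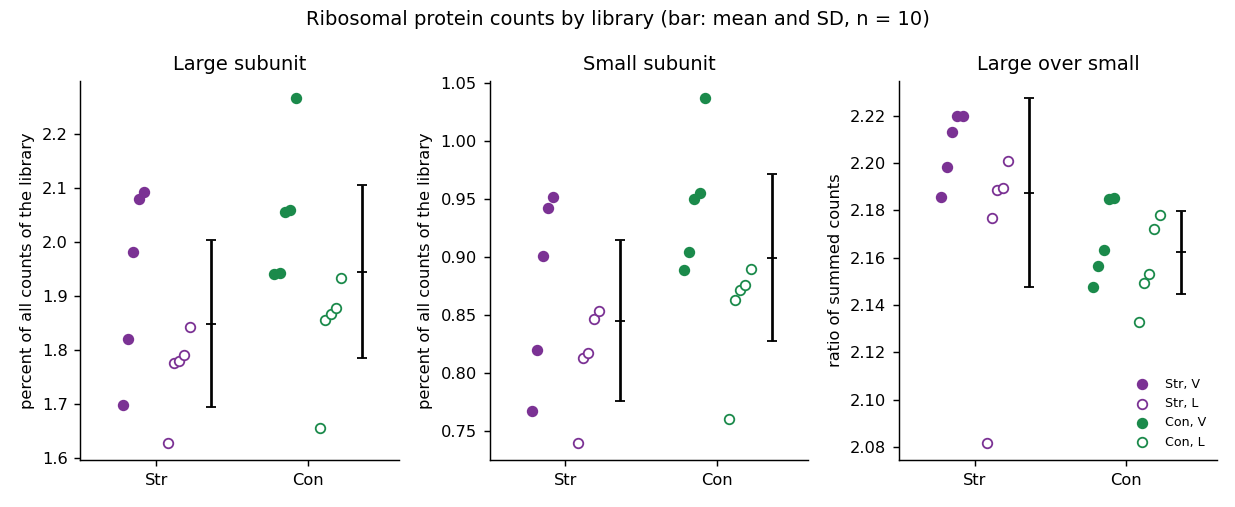
Share of each library's counts in the 48 large subunit genes (left) and 28 small subunit genes (middle), in percent, and the ratio of the 2 sums (right). Each point is a library, filled for V and open for L, and the bar gives the mean and SD of 10 libraries. The Str libraries span 1.63% to 2.09% for the large subunit and the Con libraries 1.66% to 2.27%, and in both groups V libraries lie mostly above L libraries.

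Of the 76 members, 1 rose in Str (Rpl7l1), 2 fell (Rps4x and Rpl37) and 73 did not pass the test, at an adjusted p under 0.05 in edgeR's quasi-likelihood test. That is 3.95% of the members, while 16.7% of all 15876 genes passed, with 8.94% of all genes higher and 7.72% lower in Str. By subunit, 1 of 48 large subunit genes rose and 1 fell, and 1 of 28 small subunit genes fell. At an unadjusted p under 0.05 stood 8 of the 76 members, 1 higher and 7 lower in Str. Of all 15876 genes 4813 did, 2356 higher and 2457 lower. No member had Str and Con libraries that did not overlap in CPM (counts scaled by library total and TMM factor), which held for 0.365% of all genes.

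The changes were small and closely bounded. The log2 fold changes of the 76 members ran from -0.16 (Rps4x) to 0.22 (Rpl7l1), with a median standard error of 0.06. The 95% intervals of 73 members lay within 0.25 of zero on the log2 scale, or 1.19-fold in either direction, and the outermost bounds were -0.27 and 0.36. The median was -0.03 over the large subunit and -0.05 over the small subunit, beside 0.00 over all genes, and 59 of the 76 estimates were below zero. Without 4 Con libraries (CV3, CV4, CV6 and CL1) the medians were 0.03 for the large and 0.00 for the small subunit, and 1 member, Rpl31, passed the test (9.21% of all genes did). Of those 4 libraries 3 are V libraries, in which ribosomal protein mRNA was higher, so that this comparison sets 2 V and 4 L libraries of Con against 5 of each of Str. With the letter also in the fit, the medians without them were 0.00 for the large and -0.02 for the small subunit, and Rpl31 again passed (log2 fold change 0.18, edgeR adjusted p = 0.0431, 10.1% of all genes called). With all 20 libraries and the letter in the fit the medians were -0.03 and -0.05, within V libraries -0.05 and -0.08, and within L libraries -0.02 and -0.04. Those 4 libraries had 140 to 168 CPM in summed hepatocyte markers (4 of 8 measured), against 52.2 to 71.1 CPM in the other 6 Con libraries and 41.6 to 67.0 CPM in Str, and large subunit shares of 1.87% to 2.27%. The part of the liver transcripts in the result was not tested.

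**Figure D2:**
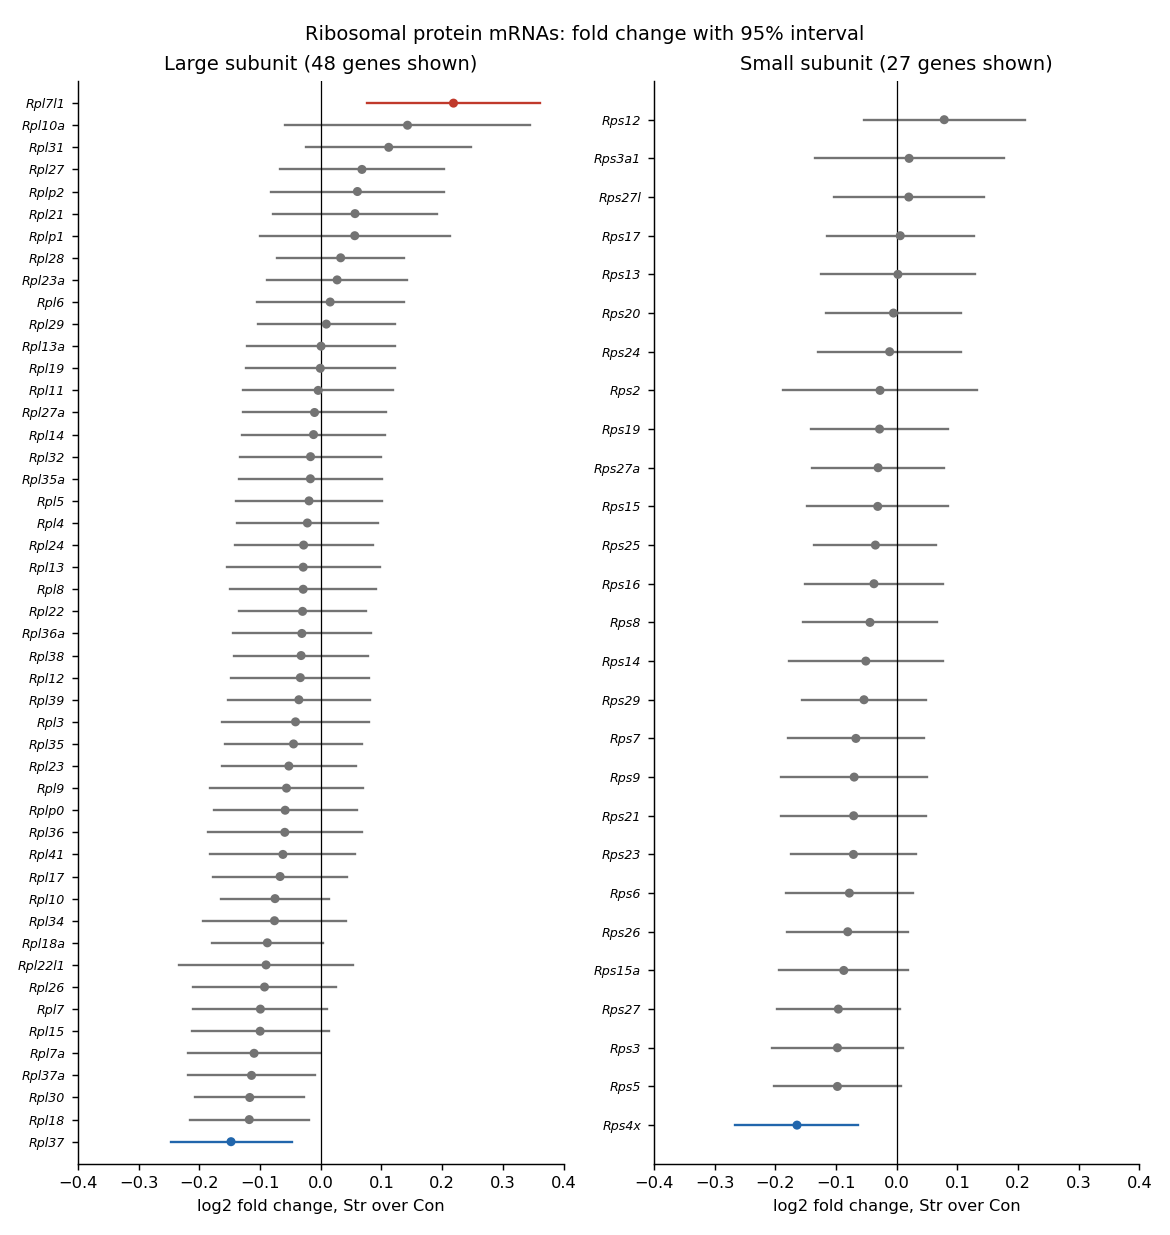
Log2 fold change, Str over Con, of 75 members with their 95% intervals from the edgeR fit, large subunit left and small subunit right. Red marks the member that rose, Rpl7l1 (0.22), blue the members that fell, Rps4x (-0.16) and Rpl37 (-0.15), and grey those that did not pass the test, whose intervals nearly all cross zero.

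Rpl7l1 was the member that rose. It is a paralog of Rpl7 on chromosome 17 (GRCm38, 46773907 to 46782656), and its yeast relative Rlp7 acts in large subunit assembly and is not part of the finished ribosome. The Str libraries held 35.9 to 52.3 CPM of Rpl7l1 (median 43.0), against 32.0 to 41.4 CPM in Con libraries (median 38.1). The highest levels were in SV6, SV1 and SL4, 6 Str libraries lay above every Con library, and the lowest Str libraries were within the Con range. The log2 fold change was 0.22 (SE 0.07, 1.16-fold, edgeR adjusted p = 0.0313). The estimate was 0.28 within the V libraries and 0.15 within the L libraries, and passed in neither alone (adjusted p = 0.103 and 0.381). The call was lost at adjusted p from 0.0507 to 0.0655 when CV4, CV6, CL4, SV1, SV4, SV6 or SL2 was left out, and at 0.157 without the 4 Con libraries named above, where the log2 fold change was 0.18.

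Rps4x, the X-linked gene of a small subunit protein (GRCm38, chromosome X, 102184941 to 102189391), had the lowest fold change. It was at 415 to 520 CPM in Str libraries (median 448), against 441 to 568 CPM in Con libraries (median 519). The lowest levels were those of SV2, SL2 and SL6, and all but the lowest Con library, CL4, were at 486 CPM or more. The log2 fold change was -0.16 (SE 0.05, 0.892-fold, edgeR adjusted p = 0.0234). Of the 20 fits that left out 1 library, the call was lost without SV2 or SL2 (adjusted p = 0.0507 to 0.0531), and it was also lost without the 4 Con libraries (log2 fold change -0.11, adjusted p = 0.213).

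Rpl37, a zinc-binding protein of the large subunit encoded on chromosome 15 (GRCm38, 5116613 to 5119140), had 235 to 287 CPM in Str libraries (median 254), against 248 to 324 CPM in Con libraries (median 279). Among the Str libraries, 4 lay below every Con library, and CV2 and CV3 were the highest of all. The log2 fold change was -0.15 (SE 0.05, edgeR adjusted p = 0.0376). This call was lost in 11 of the 20 fits without 1 library (without CV1, CV2, CV3, CL3, CL6, SV1, SV2, SL1, SL2, SL4 or SL6), at adjusted p from 0.0515 to 0.079, and without the 4 Con libraries, where the log2 fold change was -0.14 (adjusted p = 0.122).

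**Figure D3:**
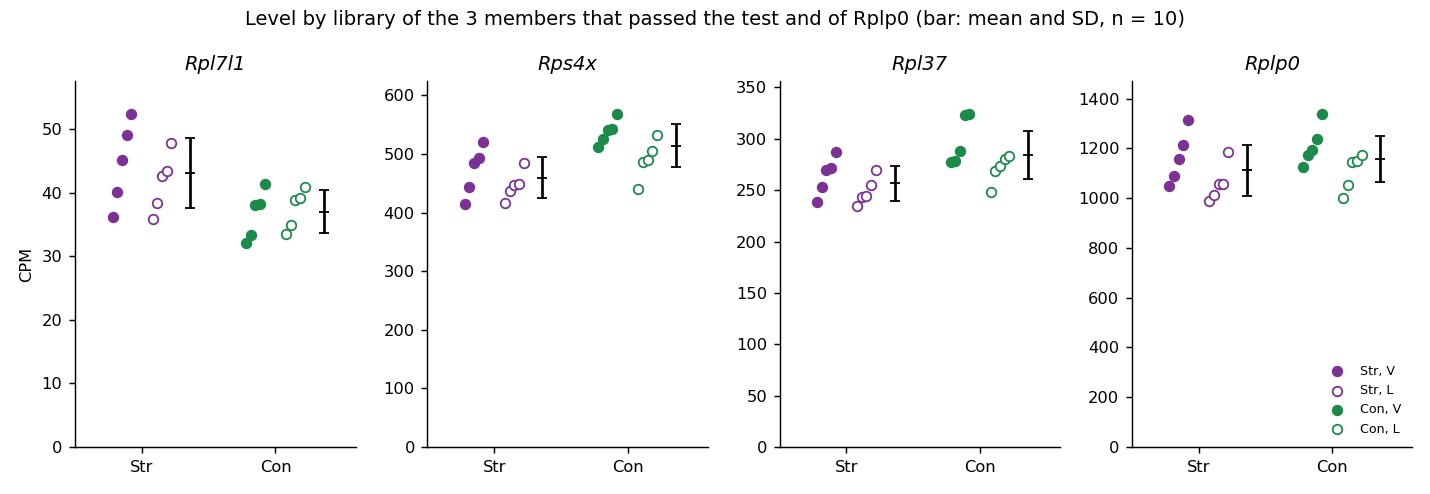
CPM of Rpl7l1, Rps4x, Rpl37 and, for comparison, Rplp0 in each library, on axes that start at 0. Each point is a library, filled for V and open for L, and the bar gives the mean and SD of 10 libraries. The Str and Con libraries overlap in all 4 genes, with 6 Str libraries of Rpl7l1 above and 4 of Rpl37 below every Con library.

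Other members with small p-values were lower in Str and did not pass. Rpl30 had a log2 fold change of -0.12 (adjusted p = 0.0663), Rpl18 of -0.12 (0.0928), Rpl37a of -0.11 (0.127) and Rpl7a of -0.11 (0.159), all in edgeR. Rpl30 was at 246 to 291 CPM in Str libraries (median 259), against 248 to 313 CPM in Con libraries (median 292), so that all 10 Str libraries lay below the Con median and 5 Con libraries lay above every Str library. On the other side, Rpl31, which lies near the exit of the peptide tunnel, was at 363 to 502 CPM in Str libraries (median 433), against 344 to 475 CPM in Con libraries (median 387), with a log2 fold change of 0.11 (adjusted p = 0.263). Rps12 had the highest estimate of the small subunit, 0.08 (adjusted p = 0.438), with 3 Str libraries above every Con library.

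The stalk of the large subunit, which recruits the translation factors, is made of Rplp0 as its base and of Rplp1 and Rplp2. Rplp0 was at 991 to 1317 CPM in Str libraries (median 1074), against 1001 to 1338 CPM in Con libraries (median 1162). Its log2 fold change was -0.06 (95% interval -0.18 to 0.06). Rplp1 was at 549 to 762 CPM in Str libraries (median 665), against 553 to 802 CPM in Con libraries (median 645), and Rplp2 at 355 to 498 CPM (median 390), against 344 to 466 CPM (median 391.99). Their log2 fold changes were 0.06 for Rplp1 (95% interval -0.10 to 0.21) and 0.06 for Rplp2 (-0.08 to 0.20), and none of the 3 stalk genes passed the test.

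Several members come as a parent gene and a paralog of lower level. Per kilobase of transcript, Rpl7 had a mean of 634 CPM in Str and 679 CPM in Con, while Rpl7l1 had 16.5 CPM in Str and 14.2 CPM in Con. Rpl7 itself had a log2 fold change of -0.10 (95% interval -0.21 to 0.01), opposite in sign to that of its paralog, and did not pass (adjusted p = 0.215). Rpl22, and Rpl22l1 which can take its place, had 102 and 50.3 CPM per kilobase in Str, against 105 and 53.6 in Con, with log2 fold changes of -0.03 and -0.09. Rps27, and Rps27l which p53 is known to induce, had 708 and 77.5 CPM per kilobase in Str, against 757 and 76.5 in Con, with log2 fold changes of -0.10 and 0.02. Neither pair had a member that passed. Rpl3, at the catalytic centre, Rpl10, which joins the large subunit late, and Rpl39, in the peptide tunnel, had log2 fold changes of -0.04, -0.08 and -0.04 and did not pass. The paralogs Rpl3l, Rpl10l, Rpl39l and Rps4l had no protein coding row in the counts used. Rps10, Rps18 and Rps28 had no row under these names in the counts used, so the small subunit sums leave them out. The sums of the members also leave out 4 measured ribosomal protein genes whose symbols lack the form of the naming rule. Together these were at 1627 to 2129 CPM in Str libraries (median 1847), against 1640 to 2203 CPM in Con libraries (median 1903). None of them passed the test. The subunit shares and their ratio therefore do not cover every ribosomal protein mRNA.

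Members with known roles outside the ribosome were not called either. Rpl5 and Rpl11 bind MDM2, the ubiquitin ligase of p53, when ribosome assembly fails, and had log2 fold changes of -0.02 (95% interval -0.14 to 0.10) and 0.00 (-0.13 to 0.12). Rpl26, which binds the p53 mRNA, was at -0.09 (-0.21 to 0.03). Rpl13a, which takes part in translational silencing after interferon gamma, was at 0.00 (-0.12 to 0.12). Rps3, which also binds NFκB, was at -0.10 (-0.21 to 0.01), and Rps6, the substrate of the S6 kinases, at -0.08 (-0.18 to 0.03). Of 7 genes listed for the sensing of stalled or unassembled ribosomes or for the response to them, 5 had a row (Trp53, Mdm2, Cdkn1a, Zfp598 and Eif2ak4). None passed the test, and their log2 fold changes ran from -0.06 to 0.02.

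Rpl10a had 2.93 to 4.79 CPM in Str libraries (median 4.08), against 3.00 to 4.42 CPM in Con libraries (median 3.50), the member with the fewest counts. Near identical processed copies can share the reads of their parent gene, so the levels of Rpl10a and of other members with such copies are uncertain. Of 59 retrocopy and pseudogene rows of ribosomal protein genes, none rose and 5 fell in Str (8.47%, beside 7.72% of all genes lower), with a median log2 fold change of -0.09. Without the 4 Con libraries none of the 59 was called and their median was -0.02. Rpl37rt, a retrocopy of Rpl37, was at 4.37 to 5.80 CPM in Str libraries (median 5.09), against 5.60 to 7.19 CPM in Con libraries (median 6.28), a log2 fold change of -0.28 (SE 0.07, edgeR adjusted p = 0.00491), which is the sign its parent had too, and without the 4 Con libraries it was at -0.24 (adjusted p = 0.0551). Rps13-ps2 (-0.77) and Rpl36a-ps2 (-0.27) were among the others that fell. Adding these rows to their parent genes left the calls among members at the same 3 genes.

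The members varied together from library to library. A singular value decomposition of their log2 CPM, each centred on its mean, placed 72.0% of the variance on a first axis on which all 76 members had the same sign, and the Str and Con libraries overlapped along it (-0.39 to 0.37 in Str, -0.36 to 0.45 in Con). CV3 was highest and SL2 lowest on this axis. The axis also went with the letter in the library name. In Str, V libraries were at -0.22 to 0.37 and L libraries at -0.39 to 0.02. In Con, V libraries were at 0.09 to 0.45 and L libraries at -0.36 to -0.05, with no overlap. The second axis held 7.87% of the variance, with all 10 Str libraries on one side (-0.37 to -0.05) and all 10 Con libraries on the other (0.04 to 0.56). Rpl7l1, Rpl31, Rpl27, Rpl10a, Rpl21 and Rps12 led the Str side, and Rpl37, Rps4x, Rpl37a, Rpl30 and Rpl18 led the Con side. These axes were drawn from the same values as the fold changes above and are a description.

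**Figure D4:**
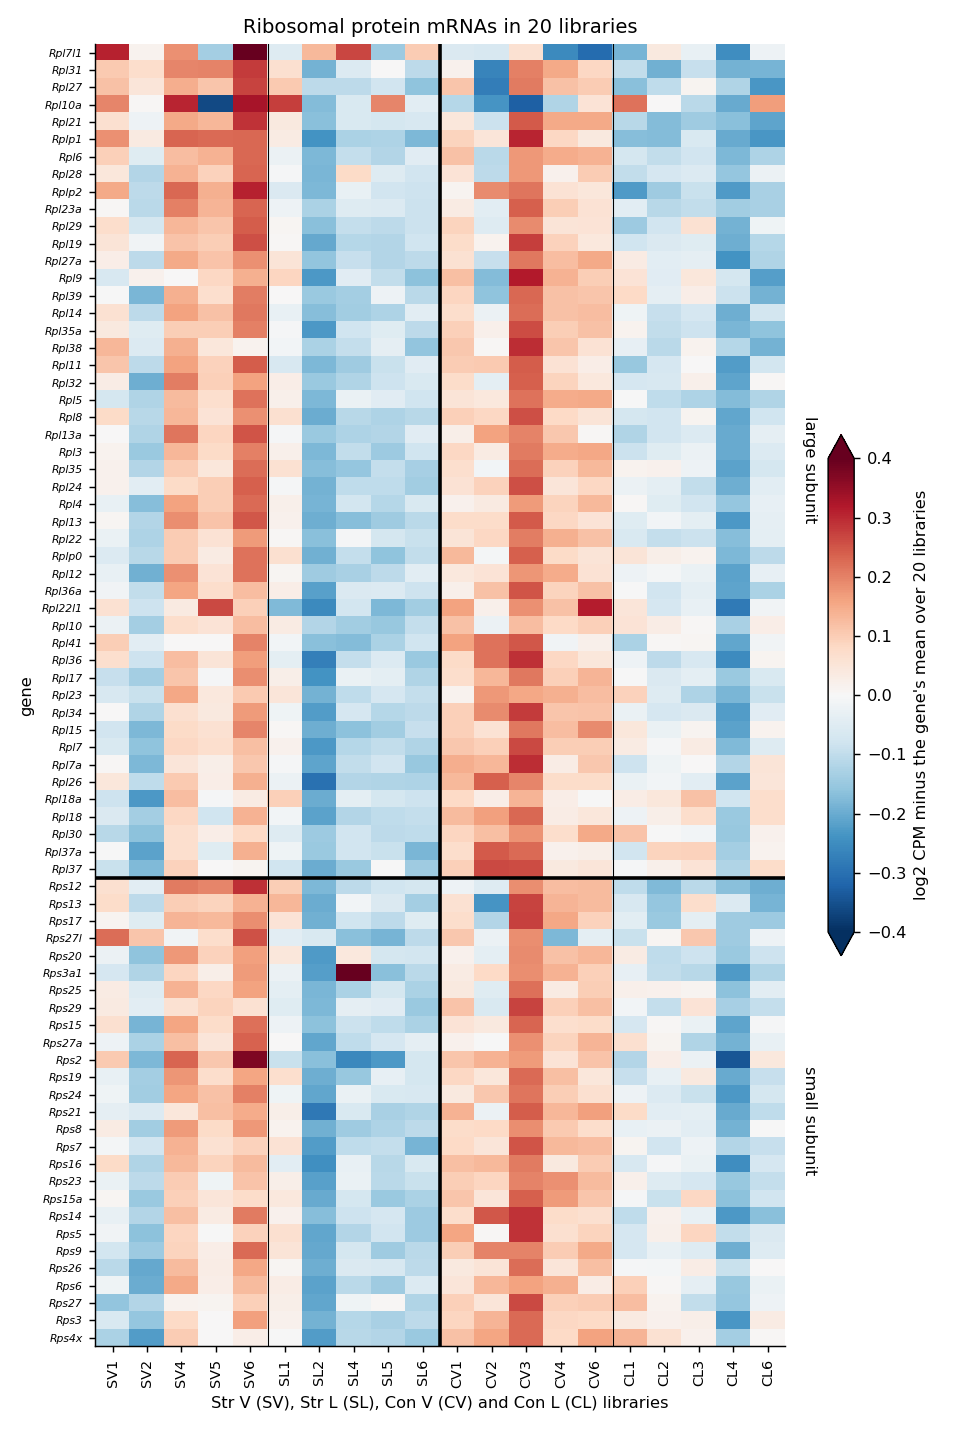
Log2 CPM of 75 members in 20 libraries, each minus the gene's own mean, with Str libraries left and Con libraries right of the thick vertical line, and V left of L within each group. The members are ordered by the second axis within each subunit, from those leading the Str side to those leading the Con side. Whole columns share a colour, red in SV6 and CV3 and blue in SL2 and CL4, while differences between Str and Con columns are seen in the top and bottom members of each block.

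Setting each library's scale by its own summed member counts removes the movement that the members share. Because their sum is then fixed, higher members are balanced by lower ones, and each member's value is relative to the other members. On that scale Rpl7l1 was higher in Str (log2 fold change 0.25, edgeR adjusted p = 0.0362), Rpl31 was higher (0.15, adjusted p = 0.0431) and Rps4x was lower (-0.13, adjusted p = 0.0376), while Rpl37 was at -0.11 and did not pass (adjusted p = 0.123). With this scale 8.82% of all genes passed, and the 3 members that did were 3.95% of the 76. This alternative was chosen after the data were seen.

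The letter in the library name went with the level of ribosomal protein mRNA. In Str, 76 of 76 members had a higher mean in V than in L libraries, by a median of 0.13 on the log2 scale, and in Con 74 of 76 did, by a median of 0.18, while the median over all genes was 0.00 in both groups. In Str, 3 members (Rpl31, Rplp1 and Rps27l) had all 5 V libraries above all 5 L libraries, as 1.68% of all genes did. In Con, 36 members did so, 22 of the large and 14 of the small subunit, against 1.87% of all genes. Rplp1 had the largest difference in mean log2 CPM between V and L libraries, 0.31 in Str and 0.28 in Con. In Str it was at 666 to 762 CPM in the V and 549 to 664 CPM in the L libraries. In Con it was at 667 to 802 CPM in the V and 553 to 622 CPM in the L libraries. Rpl10a and Rpl7l1 were the members not higher in V in Con. What the letters stand for cannot be told from the sources used here, so the cause was not tested. With the letter in the fit, Rpl7l1 again rose, and Rps4x, Rpl37 and Rpl30 fell, beside 1578 higher and 1412 lower of all 15876 genes. No member, and none of all 15876 genes, passed the test of a difference between the Str effect in V and in L libraries in edgeR. At an unadjusted p under 0.05 stood 1 of 76 members, beside 918 of all 15876 genes. That member was Rps27l, at 0.11 in V and -0.09 in L libraries (edgeR p = 0.0486).

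Many of the genes that assemble the ribosome were higher in Str. Of 52 measured ribosome assembly genes of 53 listed, 21 rose, 1 fell and 30 did not pass, beside 8.94% of all genes higher in Str, and their median log2 fold change was 0.17. Rrs1, which brings the 5S ribonucleoprotein with Rpl5 and Rpl11 to the forming large subunit, was at 11.6 to 21.7 CPM in Str libraries (median 15.97), against 9.44 to 12.9 CPM in Con libraries (median 12.1). The Str libraries stood above every Con library in 9 of 10 cases, and the log2 fold change was 0.50 (SE 0.10, edgeR adjusted p = 0.00113). Ftsj3, an rRNA methyltransferase, was at 40.9 to 60.8 CPM in Str libraries (median 49.98), against 34.8 to 43.1 CPM in Con libraries (median 40.9), a log2 fold change of 0.30 (adjusted p = 0.00159). Bysl, of small subunit maturation, rose by 0.41 and Rrp12, of subunit export in yeast, by 0.46. The gene that fell, Nop10 (-0.20, adjusted p = 0.0254), is part of the H/ACA particles that modify rRNA, and was named after its value was seen. Its call was lost without CV3 or CL3 (adjusted p = 0.0504 and 0.0505). Without the 4 Con libraries 9 assembly genes rose and 1 fell, with a median of 0.17, and with 1 library left out in turn 14 to 26 rose.

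**Figure D5:**
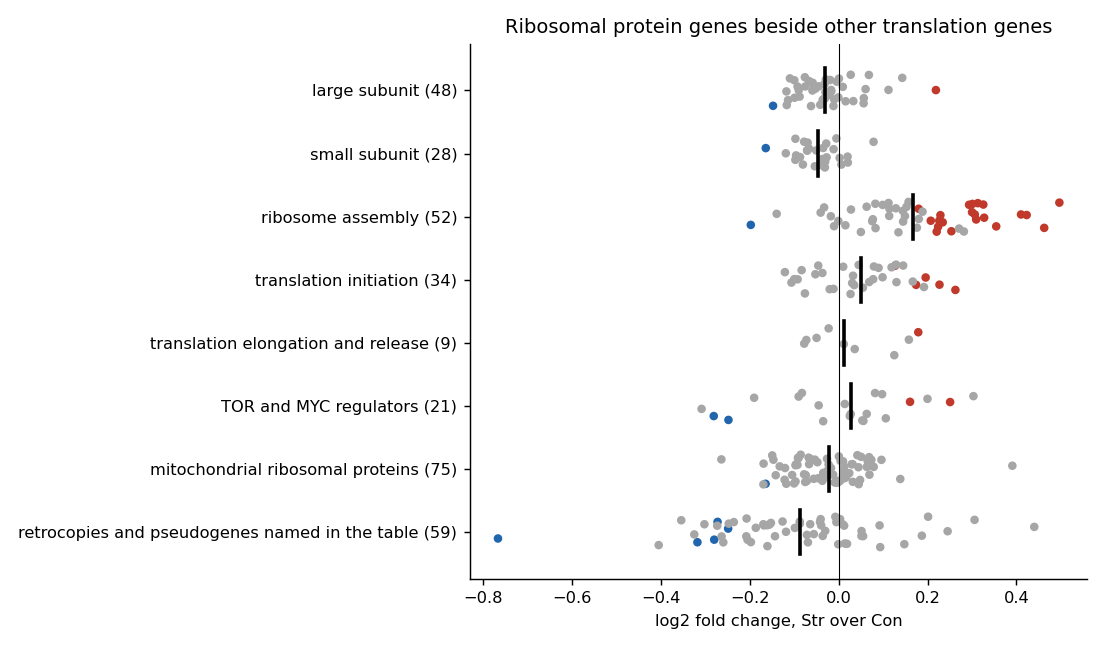
Log2 fold change, Str over Con, of every measured gene of 8 lists, with the median of each list as a black bar, red points for genes that rose, blue points for genes that fell and grey points for those that did not pass. Ribosomal protein genes of both subunits lie near zero (medians -0.03 and -0.05), and the 52 assembly genes lie mostly above it (median 0.17).

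The factors that work on the finished ribosome were called in shares nearer to that of all genes, of which 16.7% were called (8.94% higher and 7.72% lower in Str). Of 34 initiation genes 5 rose (14.7%) and none fell (median 0.05): Eif5b, which joins the subunits, by 0.26, Eif6, which keeps free large subunits apart, by 0.23, Pabpc1 by 0.20, Eif4g1 by 0.17 and Eif4g2 by 0.13. Eif5b was at 62.5 to 78.1 CPM in Str libraries (median 68.9), against 52.8 to 61.9 CPM in Con libraries (median 58.4), with no overlap (adjusted p = 0.000518). Without the 4 Con libraries 4 initiation genes rose, Eif5b and Pabpc1 among them. Of 9 measured elongation and release genes 1 rose, the release factor gene Gspt1 (0.18, adjusted p = 0.0223). The call of Gspt1 was lost when the 4 Con libraries were left out (0.18, adjusted p = 0.104). Of 16 other mRNAs known to carry a TOP motif 1 rose, Pabpc1, with a list median of -0.02. Of 75 mitochondrial ribosomal protein genes none rose and 1 fell, Mrps31 (-0.16, adjusted p = 0.0155). Among 21 measured regulators in the TOR and MYC pathways, Myc (0.25) and Rps6kb1 (0.16), an S6 kinase gene, rose, and Sesn2 (-0.28), an inhibitor of TOR, and Mxd4 (-0.25), a repressor in the MYC network, fell, which makes 19.0% of the 21 called. Neither lower call held without the 4 Con libraries, where Sesn2 was at -0.31 (adjusted p = 0.0903) and Mxd4 at -0.17 (adjusted p = 0.301). That of Sesn2 was also lost without CL1, CL6, SV4, SV6, SL1, SL2 or SL6, and that of Mxd4 without CV1, CV2, CV3, CV4, CV6, CL1, CL3, SV1, SV2, SV6, SL1, SL2 or SL6. Myc was at 20.3 to 27.7 CPM in Str libraries (median 21.7), against 16.6 to 21.1 CPM in Con libraries (median 19.2), and 8 Str libraries lay above every Con library (adjusted p = 0.00879).

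Library depth ran from 20034127 to 26141352 counts, and the lowest count of any member in any library was 71. Epcam was at 1226 to 1624 CPM in Str libraries, against 1199 to 1376 CPM in Con libraries, and Ptprc, which encodes CD45, was at 0.329 to 1.62 CPM in Str and 0.507 to 2.17 CPM in Con. The summed level of 4 measured leukocyte markers of 12 listed was 36.1 to 130 CPM in Str and 22.5 to 43.9 CPM in Con, most of it Ly6g, and the summed level of 10 markers of crypt base and cycling cells was 889 to 1608 CPM in Str and 789 to 1442 CPM in Con. Of the crypt markers 1 of 10 rose (Sox9, 0.20) and none fell. Of 8 markers of surface colonocytes 3 rose and 2 fell, with log2 fold changes from -0.78 (Car1) to 0.45 (Ceacam1), and their summed level was 12702 to 17861 CPM in Str and 12113 to 18548 CPM in Con. Without the 4 Con libraries 1 of the 8 rose and 2 fell. Of 6 goblet cell markers 1 fell (Agr2, -0.28), with a summed level of 9709 to 15167 CPM in Str and 11367 to 19245 CPM in Con. The part of these cells in the levels of ribosomal protein or assembly genes was not tested.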

How the data were processed

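RNA sequencing of IECs from 10 Str and 10 Con mice was analysed. The authors depleted ribosomal RNA, built directional libraries, used STAR for alignment to GRCm38.p4 and HTSeq for reads per gene. The deposited values used are these whole-number counts, and 20 further columns, which hold scaled values, were left out. How reads that fit several near identical copies were counted is not given in the sources used here. Column names gave the group but not the mouse. Str mice were stressed in shared cages, and which libraries shared a cage is not given in the sources used here, so p-values treat libraries as independent.

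Fold changes of Str over Con and their p-values came from the quasi-likelihood F test of edgeR 4.0.16 under R 4.3.3. Normalization was by TMM, genes with a mean under 4 counts were to be dropped (none was), and p-values were adjusted over 15876 genes by Benjamini-Hochberg. Calls are at an adjusted p under 0.05. CPM use TMM factors, and log2 CPM a prior count of 2. Levels per kilobase use the shortest GENCODE coding transcript matched to RefSeq. The scripts were tested on simulated data. Tables and figures used Python 3.11.15 with numpy, pandas, scipy and matplotlib.

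The values of 1 member are not reported here and it is left out of the figures that name genes, while all counts and sums include it. The members, gene lists and tests were chosen with earlier results of these data known. The rule names the 10 members of smallest adjusted p, the 3 highest and 3 lowest fold changes per subunit, stalk genes, paralogs, members with other roles, and up to 4 genes per list. Nop10, Eif4g1, the genes of the sensing of and response to stalled or unassembled ribosomes, and the markers Epcam and Ptprc were named outside it. Alternatives were DESeq2 1.42.0, limma-voom (limma 3.58.1), RLE factors, library sizes alone, other filters, the letter as covariate, V or L alone, fits without 4 Con libraries or without 1 library, and a block by name. Scaling to the members, adding retrocopy rows, and leaving out the 4 Con libraries with the letter as covariate were added after the data were seen.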

Additional observations from a re-analysis of the deposited data

Results flagged for a closer look

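Among 72 sets of 10 values examined (31 named members and 5 summary measures in each group), 3 had a library far from the other 9. Chance alone gives about 1 such set in 20. The sets are not independent, since the members move together and the subunit ratio includes Rps3a1. The count of 3 in 72 therefore cannot tell whether a flagged library stands apart by chance. In Str, Rps3a1, a small subunit gene, was at 1043 CPM in SL4 and at 639 to 839 CPM in the other Str libraries (gap 0.507 of the range). In the same library the ratio of large to small subunit counts, which Rps3a1 enters, was 2.08, against 2.18 to 2.22 in the other Str libraries (gap 0.686 of the range). In Con, Rps3 was at 445 CPM in CL4 and at 528 to 611 CPM in the others (gap 0.501 of the range). No named member differed between V and L libraries in its Str effect at an adjusted p under 0.05 in edgeR. The causes were not tested.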

How the results depend on the processing

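All 3 calls among members were the same with RLE factors, DESeq2, the filter of edgeR, no filter, and retrocopies added to their parents, and no named member that was called changed sign in any alternative run. With library sizes alone no large subunit member rose, 5 fell, and 2 of the small subunit fell (all genes 1031 higher and 1949 lower, against 1420 and 1226). With limma-voom 3 large and 2 small subunit members fell, with 1663 of all genes higher and 1697 lower. With the letter as covariate 2 large subunit members fell, with 1578 of all genes higher and 1412 lower. In V or in L libraries alone, 0 members were called, with 807 higher and 817 lower genes in V and 9 higher and 2 lower in L, with fewer libraries. Without the 4 Con libraries 0 members fell in either subunit, and 854 genes were higher and 608 lower. With the letter also in that fit, 0 members fell, 928 genes were higher and 673 lower, and 7 assembly genes rose. Scaled to the members, 2 large subunit members rose and 0 fell, with 1002 genes higher and 398 lower. Assembly genes that rose numbered 21, against 13 with library sizes alone, 0 in L libraries and 9 without the 4 Con libraries. With 1 library left out in turn, large subunit members that rose numbered 0 to 1 and that fell 0 to 3, small subunit members that fell 0 to 2, genes higher in Str 1151 to 1567 and lower 902 to 1605, the large subunit median ran from -0.06 to 0.00 and the small from -0.07 to -0.02. Where the cause is not given by fewer libraries, it was not tested.

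Names are shared by 8 Con and 8 Str libraries. Deviations of same-named libraries correlated at 0.00 to 0.34, and 2 Str libraries correlated best with their own name, so the names were not taken to pair mice. With a replicate block by name, 0 large subunit members fell, while Rpl7l1 rose, Rps4x fell, and 1553 genes were higher and 1360 lower.

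Counting error is small for most members, and the spread between libraries, which includes that between V and L, sets the precision. Levels of mRNA say nothing of how much ribosomal protein was made.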
